A study of Mus musculus with 8 samples.

Results

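Described here are the genes of the mouse Fc gamma receptors, Fcgr1, Fcgr2b, Fcgr3 and Fcgr4. With them is Fcer1g, the gene of the signalling chain that all of these receptors but Fcgr2b share. These genes were taken by name from the deposited expression table and make up 5 of its 13388 genes. All 5 passed the filter on low values and were tested.

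The RNA came from wild-type mouse bone marrow. Ly6C+ classical monocytes and common monocyte progenitors (cMoPs, the dividing precursors of monocytes) were sorted and kept for 6 h on a layer of OP9 cells, a mouse stromal line, or of OP9-DLL1 cells, the same line carrying the Notch ligand DLL1. This gave 4 groups of 2 libraries: monocytes on OP9, monocytes on OP9-DLL1, cMoPs on OP9 and cMoPs on OP9-DLL1. All groups share the wild-type genotype, the 6 h culture and contact with stroma, so the OP9 groups are controls for the ligand and not cells taken straight from marrow. The series addresses how Notch signalling bears on the development of nonclassical monocytes. Replicates are numbered in the labels, which do not tie a number to an animal or a culture. The p-values below thus describe the spread among these libraries, and that spread may be technical.

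Fc gamma receptors bind the constant part of IgG and link antibody-coated particles to phagocytosis and to the release of cytokines. Fcgr1 encodes the high-affinity activating receptor CD64, Fcgr3 the low-affinity activating receptor CD16, and Fcgr4 an activating receptor of intermediate affinity that is typical of nonclassical monocytes. None of these 3 receptors signals through its own tail: each relies on the Fcer1g product, a small chain with an activation motif (ITAM) that is phosphorylated by Src family kinases and recruits the kinase Syk. Fcgr2b encodes the only inhibitory member of the family, whose own tail carries an inhibitory motif (ITIM) that recruits the phosphatase SHIP-1, so the relative amounts of activating and inhibitory receptors set the threshold of a cell for immune complexes.

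Depth was similar across libraries, with 47316323 to 62459962 reads recovered from the deposited values, and 1 read was worth 0.0151 to 0.0231 CPM, the depth-normalised read count used throughout. The sorted identities were visible in the markers. The summed level of 10 classical monocyte markers was 7058 to 9870 CPM in monocytes and 3989 to 4775 CPM in cMoPs, with Ccr2 at 1415 to 1927 and 226 to 482 CPM but Ly6c2 higher in cMoPs (2065 to 2314 CPM) than in monocytes (872 to 1204 CPM). Of 10 progenitor markers, the 9 in the table summed to 341 to 799.5 CPM in monocytes and 15220 to 22540 CPM in cMoPs, where Elane, Mpo and Prtn3 led.

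4 of the 5 genes lie together on chromosome 1 (GRCm38, the assembly of build mm10, with GENCODE M21 gene models). Fcgr2b (ENSMUSG00000026656) spans 170958617 to 170976547 on the minus strand, Fcgr4 (ENSMUSG00000059089) 171018920 to 171029761 on the plus strand, Fcgr3 (ENSMUSG00000059498) 171051174 to 171064935 on the minus strand and Fcer1g (ENSMUSG00000058715) 171229572 to 171234365 on the minus strand. Fcgr1 (ENSMUSG00000015947) stands alone on chromosome 3, from 96282909 to 96293969 on the minus strand. The predicted antisense gene Gm38204 overlaps Fcgr2b, and a SMARTer Ultra Low library keeps no strand, which leaves reads of that overlap without a certain gene.

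Promoter sequence is shown for Fcgr1, since it was the member whose level fell on OP9-DLL1 and its gene lies apart from the others. The 250 bases before its RefSeq start (GRCm38.p6, chr3:96293970-96294219, minus strand, free of annotated exons) are printed 5′ to 3′. Capitals mark a match to the core of the Notch effector RBPJ, searched as TGGGAA, and a pair of overlapping ETS cores as bound by the myeloid factor PU.1, searched as AGGAAG. Both motifs were searched on both strands, and their matches did not overlap each other.
Fcgr1: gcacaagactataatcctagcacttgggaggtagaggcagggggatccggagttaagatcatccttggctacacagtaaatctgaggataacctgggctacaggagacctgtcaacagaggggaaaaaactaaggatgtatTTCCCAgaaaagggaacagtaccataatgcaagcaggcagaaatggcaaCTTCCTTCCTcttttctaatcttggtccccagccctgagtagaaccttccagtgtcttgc

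The only TGGGAA match of the window lay 109 to 104 bases before the Fcgr1 start. The ETS cores lay at 60 to 55 and 56 to 51 bases. Fcgr3, Fcgr4 and Fcer1g each held 1 ETS core and no RBPJ core in their own 250 bases, and Fcgr2b held neither motif. Stretches of 30 bases around these cores are shown to compare the activating receptors and their chain, with the core in capitals (chr3:96294012-96294041, chr1:171059404-171059433, chr1:171018890-171018919 and chr1:171234376-171234405, each on its gene's strand).
Fcgr1: cagaaatggcaaCTTCCTTCCTcttttcta
Fcgr3: ggttaagcaagagagtccatttcCTTCCTc
Fcgr4: gtaaggctatttaCTTCCTctcttctagtc
Fcer1g: ggtctgtagtacAGGAAGgggaaggggcca
In the 3 receptor genes the core stood as CTTCCT on the strand of the gene, and in Fcer1g as AGGAAG. Of 27025 RefSeq promoters cut to the same 250 bases, 29.2% held the ETS core and 21.5% the RBPJ core. A match describes the sequence and does not show that a factor binds there. Only the first RefSeq start listed for each gene was searched. The windows of Fcgr3 (chr1:171059404-171059653) and Fcgr2b (chr1:170976072-170976321) lie inside the GENCODE M21 spans of these genes. Sequence before any start further upstream in these genes was thus not searched.

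Sequence also bears on how Fcgr2b and Fcgr3 were counted, because the receptors share most of their extracellular part. Their longest identical coding run was 129 bases, at coding bases 278 to 406 of transcript Fcgr2b-202 and 263 to 391 of Fcgr3-201, within the stretch that encodes the extracellular immunoglobulin domains.
Fcgr2b and Fcgr3: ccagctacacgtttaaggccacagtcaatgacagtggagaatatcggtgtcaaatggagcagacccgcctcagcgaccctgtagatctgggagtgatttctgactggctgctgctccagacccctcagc
Of all 75-base windows, 11.7% of those of Fcgr2b and 12.9% of those of Fcgr3 were identical to a window of the other gene, and no 150-base window was. Reads were pairs of 150 bases, so some reads of these 2 genes may have been left uncounted or placed with the other gene, and their levels are uncertain to that extent. No other pair of members shared more than 14 bases in a row.

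Fcgr1, the high-affinity receptor gene, was the member that fell in monocytes on OP9-DLL1. Monocytes held 256 and 225 CPM on OP9 and 93.8 and 65.1 CPM on OP9-DLL1. The cMoP libraries held 86.8 and 56.1 CPM on OP9 and 47.6 and 34.1 CPM on OP9-DLL1. Monocytes on OP9 stood clear of all other libraries, while monocytes on OP9-DLL1 overlapped cMoPs on OP9. The group means were 240.2 ± 22.1, 79.5 ± 20.3, 71.4 ± 21.7 and 40.8 ± 9.55 CPM (SD, n = 2). In monocytes the log2 fold change on OP9-DLL1 against OP9 was -1.62 ± 0.25 (SE, 95% interval -2.18 to -1.05, limma-trend adjusted p = 0.0074). Without replicate 2 of monocytes on OP9-DLL1, the lower of that pair, the log2 fold change was -1.35 and the adjusted p 0.0727, so the call rested on that library. It also ended without the mean-variance trend of limma (adjusted p = 0.0654).

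Fcgr3, the low-affinity activating receptor gene, was the most abundant of the 4 receptor transcripts per kilobase of exon in every group and did not pass the limma-trend test between the stromas in monocytes. Monocytes held 1400.3 and 864 CPM on OP9 and 1196 and 983 CPM on OP9-DLL1, so the OP9-DLL1 libraries lay between the OP9 ones. In cMoPs the libraries were at 315 and 262 CPM on OP9 and 546 and 394 CPM on OP9-DLL1, and the groups did not overlap. The log2 fold change was -0.02 ± 0.23 in monocytes (interval -0.55 to 0.51, adjusted p = 0.972) and 0.69 ± 0.23 in cMoPs (interval 0.16 to 1.22, adjusted p = 0.345), neither of which passed.

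Fcgr4, whose receptor marks nonclassical monocytes, was the lowest member in every group. Monocytes had 27.7 and 13.05 CPM on OP9 and 29.1 and 20.7 CPM on OP9-DLL1, and cMoPs had 8.92 and 3.55 CPM on OP9 and 8.23 and 5.81 CPM on OP9-DLL1. The stromas overlapped in both cell types, and the cell types did not overlap. Its log2 fold change was 0.37 ± 0.46 in monocytes (interval -0.67 to 1.40, adjusted p = 0.704) and 0.30 ± 0.46 in cMoPs (interval -0.74 to 1.33, adjusted p = 0.92). Both intervals reach past 1 on the log2 scale, so a rise of that size was not excluded with these replicates. Its reads, 194 to 1417 a library, make counting error small beside the spread between replicates.

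Fcer1g, the shared chain, was the most abundant member in every group. Monocytes held 3633 and 2615 CPM on OP9 and 3696 and 3467 CPM on OP9-DLL1, and cMoPs held 743 and 760.3 CPM on OP9 and 878 and 879 CPM on OP9-DLL1. The monocyte groups overlapped, and the cMoP groups lay apart by a small step. The log2 fold change was 0.22 ± 0.15 in monocytes (interval -0.11 to 0.54, adjusted p = 0.44) and 0.23 ± 0.15 in cMoPs (interval -0.10 to 0.55, adjusted p = 0.712). The monocyte value rested on the OP9 pair: it was 0.45 and passed (adjusted p = 0.00665) without OP9 replicate 1 and was -0.02 without OP9 replicate 2.

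Fcgr2b, the inhibitory receptor gene, was the member that rose in monocytes on OP9-DLL1. Monocytes held 369.9 and 291 CPM on OP9 and 662 and 687 CPM on OP9-DLL1, with group means of 330.2 ± 56.1 and 674 ± 17.6 CPM. The cMoP libraries were at 102 and 105 CPM on OP9 and 152 and 129.5 CPM on OP9-DLL1, with means of 103 ± 2.43 and 141 ± 16.0 CPM. No group of this gene overlapped another. The log2 fold change was 1.04 ± 0.14 in monocytes (interval 0.73 to 1.35, adjusted p = 0.00393), which held with any 1 library left out (adjusted p at most 0.0498). In cMoPs it was 0.44 ± 0.14 (interval 0.13 to 0.75, adjusted p = 0.285), which did not pass in the fit of all 8 libraries but passed without either OP9 monocyte library (adjusted p = 0.0421 without replicate 1 and 0.0417 without replicate 2).

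**Figure D1:**
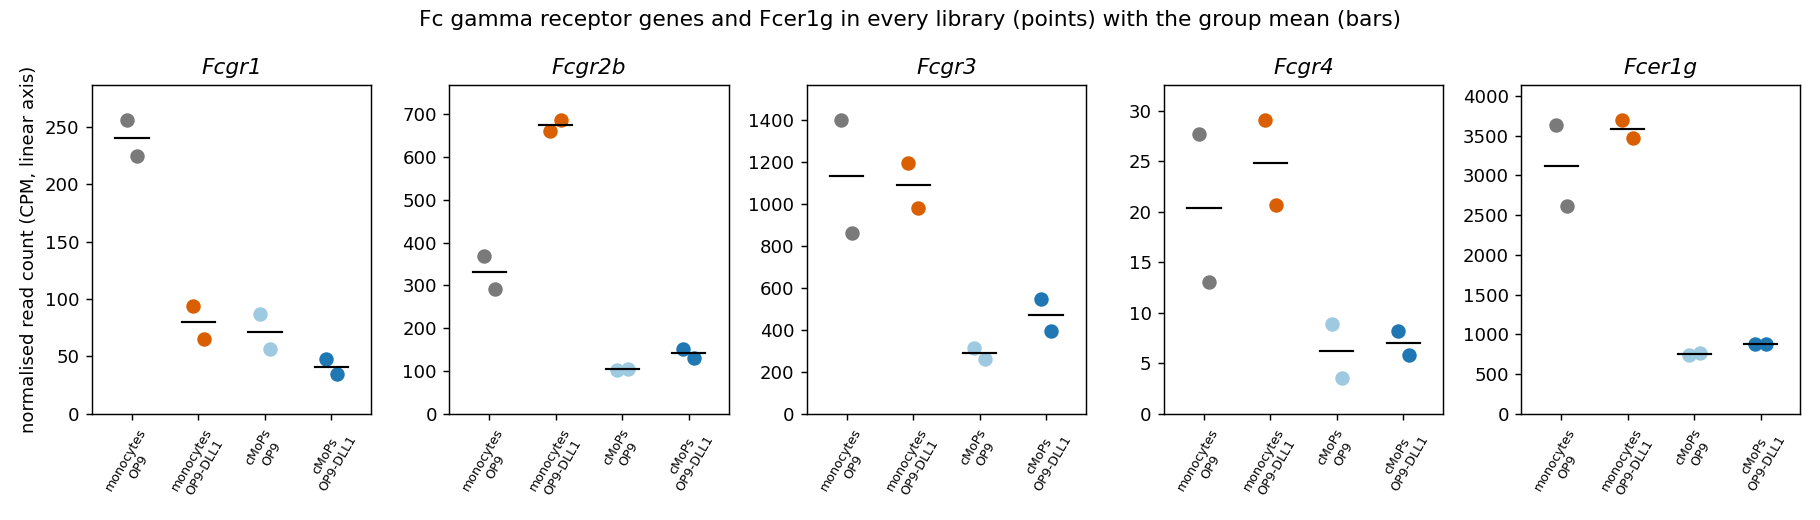
Normalised read count (CPM, linear axes from 0, 1 scale per gene) of the 5 genes in the 8 libraries; points are libraries and bars group means. Fcgr1 is highest in monocytes on OP9 (225 and 256 CPM) and Fcgr2b in monocytes on OP9-DLL1 (662 and 687 CPM), while Fcgr3, Fcgr4 and Fcer1g separate the cell types and not the stromas of monocytes.

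Per kilobase of exon, which allows genes to be compared, the order of mean levels in monocytes on OP9 was Fcer1g (3574 CPM per kb), Fcgr3 (652), Fcgr1 (92.8), Fcgr2b (57.0) and Fcgr4 (16.2). On OP9-DLL1 Fcgr2b (116 CPM per kb) stood above Fcgr1 (30.7) in monocytes, and in cMoPs the pair was at 24.3 and 15.8 CPM per kb. In cMoPs on OP9 the order was that of monocytes on OP9, with Fcgr1 at 27.6 and Fcgr2b at 17.8 CPM per kb. The exon length of Fcgr2b, 5.79 kb against 0.87 to 2.59 kb for the others, includes exons of long non-coding isoforms, so its level per kilobase is understated wherever those are not made. The 5 genes together made up 0.401% to 0.569% of the normalised library in monocytes and 0.119% to 0.163% in cMoPs.

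The comparison of stromas asks what contact with DLL1 changed in each cell type. In monocytes, 2 of the 5 genes passed, Fcgr1 lower and Fcgr2b higher, against 6.39% of all 13374 genes tested (3.03% lower and 3.36% higher). In cMoPs, 0 of 5 passed by limma-trend, against 0.770% of all genes, while Fcgr3 passed in a fit of the 4 cMoP libraries alone (adjusted p = 0.0366). With a block for the replicate number, which the labels tie to no shared source, Fcgr1 (limma-trend adjusted p = 0.0289) and Fcgr3 passed in cMoPs. That fit called 156 of all 13374 genes there. In the main fit, 3 cMoP values had an unadjusted p under 0.05, Fcgr1 with a log2 fold change of -0.79 ± 0.25 (adjusted p = 0.289), and Fcgr2b and Fcgr3 with the higher values given above. By voom on the recovered reads 0 of the 5 passed there, against 0.479% of all genes. In the authors' deposited table the same 2 genes passed in monocytes, Fcgr1 with a log2 fold change of -1.62 (adjusted p = 0.00639) and Fcgr2b with 1.04 (adjusted p = 0.00143). The authors' deposited table gave adjusted p-values of 0.123 for Fcgr1, 0.0751 for Fcgr2b and 0.0833 for Fcgr3 in cMoPs, so none of them passed there.

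The difference of these responses, cMoPs minus monocytes, was tested in the same fit, so an effect that passed in monocytes alone can be read against it. It was 0.82 ± 0.35 for Fcgr1 (interval 0.03 to 1.62, adjusted p = 0.491) and -0.60 ± 0.20 for Fcgr2b (interval -1.04 to -0.16, adjusted p = 0.385). Fcgr3 differed by 0.71 ± 0.33 (adjusted p = 0.533), Fcgr4 by -0.07 ± 0.65 (adjusted p = 0.983) and Fcer1g by 0.01 ± 0.21 (adjusted p = 0.992). By limma-trend 0 of 5 genes passed, against 0.0523% of all genes, and by voom also 0, against 0.0449%, while Fcgr1 and Fcgr2b had an unadjusted p under 0.05. The responses of monocytes and cMoPs were therefore not shown to differ for any of the 5. Fcgr3 passed without OP9 monocyte replicate 2 (1.06, adjusted p = 0.0321).

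**Figure D2:**
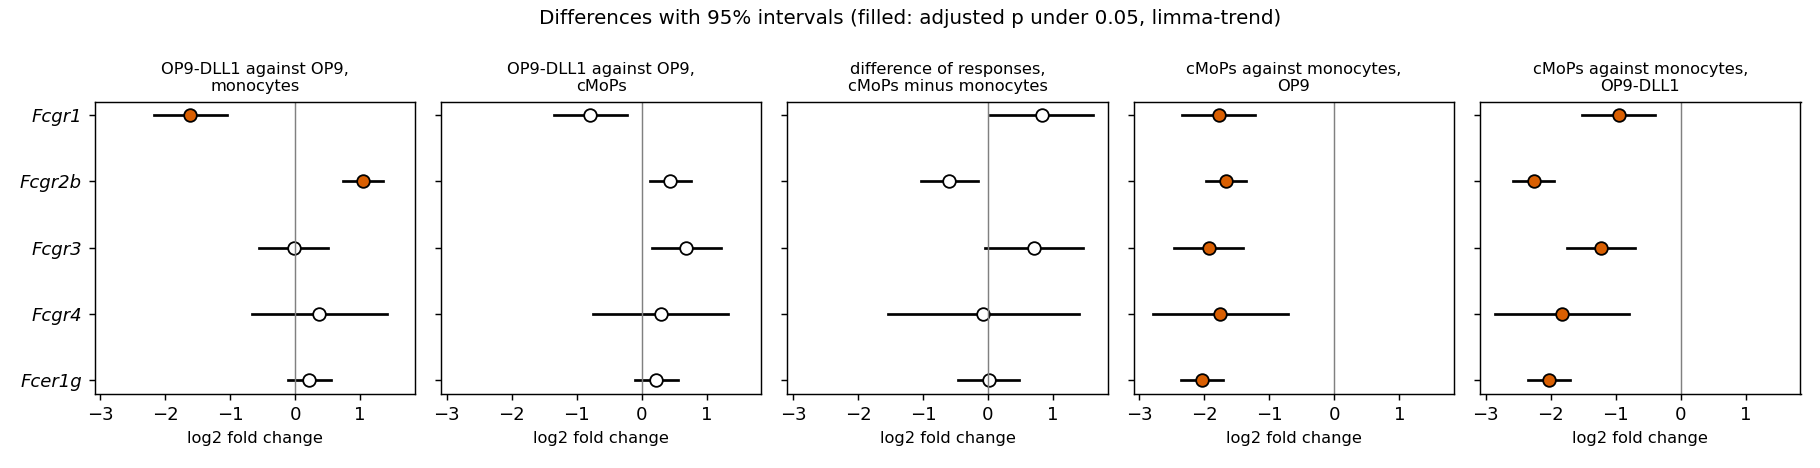
Log2 fold changes (points) with 95% intervals (lines) of the 5 genes in the 5 comparisons of the limma-trend fit; filled points have an adjusted p under 0.05. On OP9-DLL1 against OP9 in monocytes only Fcgr1 (-1.62) and Fcgr2b (1.04) are filled, and all 5 genes are filled below 0 for cMoPs against monocytes on either stroma.

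Libraries of other cells can carry these transcripts, so marker levels are set beside the monocyte result. The 11 neutrophil markers in the table summed to 2056 and 2532 CPM on OP9 and 1751 and 1745 CPM on OP9-DLL1, led by Mmp8. The 12 macrophage markers in the table summed to 3105 and 2004 CPM on OP9 and 2255 and 2234 CPM on OP9-DLL1. Most of this was Cd68, at 2344 and 1486 CPM on OP9 and 1707 and 1714 CPM on OP9-DLL1, with overlap. Adgre1 was at 449 and 280 CPM on OP9 and 256 and 202.5 CPM on OP9-DLL1. Trem2 was at 118 and 121 CPM on OP9 and 64.7 and 72.8 CPM on OP9-DLL1. Adgre1 and Trem2 were thus lower on OP9-DLL1 without overlap, as was Fcgr1. The platelet genes Pf4 and Ppbp were at 77.6 and 91.1 CPM and at 35.6 and 103.7 CPM in monocytes on OP9, and at 15.1 and 6.34 CPM and 7.11 and 6.38 CPM on OP9-DLL1. Of 15 stroma markers, the 7 in the table summed to 1027 and 1213 CPM on OP9 and 867 and 548 CPM on OP9-DLL1, of which Thbs1, which monocytes also make, was 922 and 1118 CPM and 781 and 473.5 CPM. Sparc, a matrix gene of fibroblasts, was at 1.16 to 10.3 CPM in the monocyte libraries. Markers of cells that also carry Fcgr2b went different ways. Of 11 B cell markers, the 3 in the table gave sums of 108 and 78.5 CPM for the OP9 monocyte libraries and 78.2 and 114 CPM for those on OP9-DLL1. Among them Cd22, a B cell lectin, was at 0.43 and 0.21 CPM on OP9 and 9.74 and 13.3 CPM on OP9-DLL1 in monocytes, and at 0.14 and 0.21 CPM and 6.31 and 8.50 CPM in cMoPs. Of 11 mast cell, basophil and eosinophil markers, the 5 in the table gave sums of 23.8 and 47.0 CPM for the OP9 monocyte libraries and 46.1 and 72.9 CPM for those on OP9-DLL1, of which Hdc, the histamine-forming enzyme, was 13.7 and 10.9 CPM and 45.7 and 41.0 CPM. Other genes of these lists did not rise in this way. Ighm, a B cell marker, was at 95.9 and 67.4 CPM in monocytes on OP9 and 55.6 and 82.8 CPM on OP9-DLL1. Cd79b was at 12.1 and 10.9 CPM and at 12.9 and 18.0 CPM. The basophil markers Prss34 and Mcpt8 were at 8.16 and 28.1 CPM and 1.37 and 7.45 CPM on OP9. On OP9-DLL1 they were at 0.01 and 18.3 CPM and 0.36 and 6.61 CPM. The 5 dendritic cell markers in the table summed to 27.2 and 28.2 CPM and to 23.8 and 51.6 CPM. The part of these cells in the Fcgr1 and Fcgr2b values was not tested.

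The balance of each receptor against Fcgr2b was also read within each library, as the difference of log2 CPM, where scaling between libraries cancels. It describes the values above and adds no test. Fcgr1 minus Fcgr2b was -0.53 and -0.37 in monocytes on OP9 and -2.82 and -3.40 on OP9-DLL1. In cMoPs the same difference was -0.23 and -0.90 on OP9 and -1.68 and -1.93 on OP9-DLL1. In both cell types the OP9-DLL1 libraries lay below both OP9 libraries.

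Fcgr3 minus Fcgr2b was 1.92 and 1.57 in monocytes on OP9 and 0.85 and 0.52 on OP9-DLL1, with the groups apart. In cMoPs it was 1.63 and 1.32 on OP9 and 1.84 and 1.60 on OP9-DLL1, with the groups overlapping. Fcer1g minus Fcgr2b went from 3.30 and 3.17 to 2.48 and 2.34 in monocytes and from 2.87 and 2.86 to 2.53 and 2.76 in cMoPs. The lowest activating-to-inhibitory differences of Fcgr1, Fcgr3 and Fcer1g were thus in monocytes on OP9-DLL1. For Fcgr4 minus Fcgr2b the stromas lay only just apart in monocytes and overlapped in cMoPs, with means of -4.11 ± 0.52 and -4.78 ± 0.39 in monocytes and -4.20 ± 0.97 and -4.34 ± 0.19 in cMoPs. Fcgr1 minus Fcgr3, a balance between activating receptors, was -2.20 ± 0.36 and -3.79 ± 0.17 in monocytes and -2.04 ± 0.26 and -3.52 ± 0.01 in cMoPs, so it was lower on OP9-DLL1 in both.

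**Figure D3:**
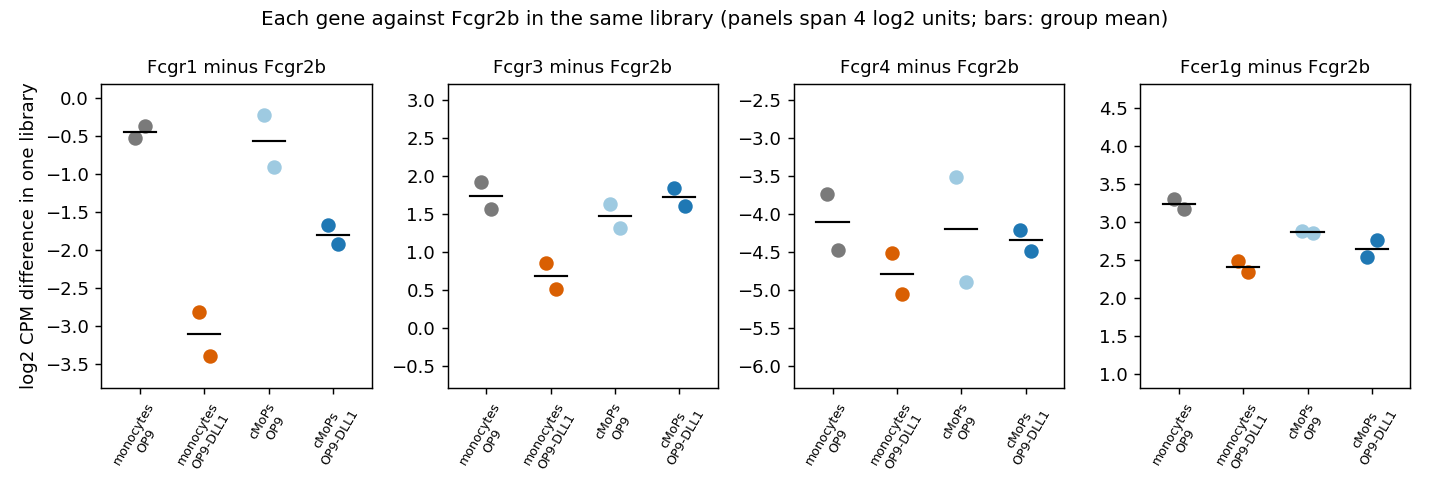
Difference of log2 CPM between each activating gene and Fcgr2b in the same library; points are libraries, bars group means, and each panel spans 4 log2 units. Fcgr1 minus Fcgr2b is lowest in monocytes on OP9-DLL1 (-2.82 and -3.40), and Fcgr3 minus Fcgr2b is lower there (0.85 and 0.52) than in any other group.

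All 5 genes were lower in cMoPs than in monocytes on both stromas, against 27.7% of all genes lower (56.5% called in either direction) on OP9 and 29.2% lower (57.4% in either direction) on OP9-DLL1. On OP9 the log2 fold changes were -1.78 ± 0.25 for Fcgr1 (adjusted p = 0.000305), -1.94 ± 0.23 for Fcgr3 (0.000128), -1.76 ± 0.46 for Fcgr4 (0.00985), -2.04 ± 0.15 for Fcer1g (6.18e-06) and -1.67 ± 0.14 for Fcgr2b (1.36e-05). The 5 intervals overlapped, from -2.79 to -0.72 for Fcgr4 and from -2.36 to -1.71 for Fcer1g. On OP9-DLL1 the values spread further, from -0.96 ± 0.25 for Fcgr1 (adjusted p = 0.00922) to -2.26 ± 0.14 for Fcgr2b (1.87e-06), with Fcgr3 at -1.23 ± 0.23 (0.00177), Fcgr4 at -1.83 ± 0.46 (0.00773) and Fcer1g at -2.03 ± 0.15 (4.6e-06). In bulk RNA, fewer cells that carry a transcript and less of it per cell cannot be told apart.

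The Fcgr1 call on OP9-DLL1 ended without monocyte replicate 1 (adjusted p = 0.0839) or cMoP replicate 2 (0.0818) of that stroma. Fcgr4 lost its call on OP9 without monocyte replicate 1 (0.0552) or cMoP replicate 2 (0.0839), and on OP9-DLL1 without monocyte replicate 1 (0.0599) or cMoP replicate 2 (0.0589). Fcgr2b, Fcgr3 and Fcer1g passed on both stromas with any 1 library left out. The neutrophil markers summed to 658 to 743 CPM in cMoPs against 1745 to 2532 CPM in monocytes, and the macrophage markers to 329 to 359 CPM against 2004 to 3105 CPM. Their part in the lower receptor levels of cMoPs was not tested.

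The genes around the receptors were counted by lists. Of 13 other Fc receptor genes, 3 were tested. Fcgrt, the neonatal Fc receptor that recycles IgG, had 35.7 and 18.0 CPM in monocytes on OP9 and 50.1 and 53.6 CPM on OP9-DLL1 (log2 fold change 1.03 ± 0.34, limma-trend adjusted p = 0.115), which passed by voom (adjusted p = 0.0384). It was lower in cMoPs than in monocytes on OP9 by -3.16 ± 0.34 on the log2 scale (adjusted p = 6.43e-05). Trim21, an Fc receptor of the cytosol, was at 0.48 to 2.57 CPM in all libraries. By limma-trend 0 of the 3 passed between stromas in either cell type, beside 6.39% of all genes in monocytes and 0.770% in cMoPs. In monocytes 1 was higher at an unadjusted p under 0.05, and in cMoPs 1 upward and 1 downward value did so, with 0 by voom in cMoPs.

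Other signalling adaptors, 2 with an ITAM and Hcst without one, divided by cell type. All 3 tested were called on both stromas, beside 56.5% of all genes on OP9 and 57.4% on OP9-DLL1. Tyrobp, the chain of DAP12-coupled receptors, was lower in cMoPs on OP9 by -1.93 ± 0.18 on the log2 scale (adjusted p = 2.32e-05), a value close to that of Fcer1g. Cd79b, which signals for the B cell receptor, was higher in cMoPs by 1.997 ± 0.18 (adjusted p = 2.02e-05), at 44.3 and 47.1 CPM against 12.1 and 10.9 CPM. Hcst, the DAP10 chain, which recruits PI3-kinase, was lower on OP9 by -0.55 ± 0.18 (adjusted p = 0.0258). That call ended without OP9 monocyte replicate 1 or OP9 cMoP replicate 2, and under 3 of 9 other settings. The Hcst call on OP9-DLL1 (-0.54 ± 0.18, adjusted p = 0.028) ended without any of 3 single libraries and under 2 of 9 other settings. Between stromas 0 of the 3 adaptors passed by limma-trend or voom, and in each cell type 1 was higher at an unadjusted p under 0.05. The limma-trend shares of all genes there were 6.39% in monocytes and 0.770% in cMoPs.

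Of 9 tested genes of other receptors that pair with the Fcer1g chain, 2 fell in monocytes on OP9-DLL1 and 1 fell in cMoPs, and voom also called 1 higher in monocytes. By limma-trend this was 22.2% of the list in monocytes and 11.1% in cMoPs, beside 6.39% and 0.770% of all genes. Clec4d, a receptor for mycobacterial glycolipid, fell in both, from 479 and 473 CPM to 332 and 241 CPM in monocytes (-0.75 ± 0.16, adjusted p = 0.0276) and from 84.1 and 101.8 CPM to 46.1 and 45.8 CPM in cMoPs (-1.01 ± 0.16, adjusted p = 0.0257). Clec4e, the receptor Mincle, fell in monocytes (-0.56 ± 0.13, adjusted p = 0.0356) and had -0.67 ± 0.13 in cMoPs (adjusted p = 0.0582). Each of these 3 calls ended when any of several single libraries was left out, with adjusted p-values up to 0.26. The list median was 0.09 on the log2 scale in monocytes and 0.18 in cMoPs, beside 0.01 over all genes in both. In cMoPs against monocytes 7 of the 9 were lower on OP9 and 8 on OP9-DLL1, beside 27.7% and 29.2% of all genes, with none higher by limma-trend, by voom or at an unadjusted p under 0.05. Clec4n, the receptor Dectin-2, had the lowest value, -6.61 ± 0.21 on OP9 (adjusted p = 1.03e-07), from 1744 and 1161 CPM in monocytes to 15.2 and 13.99 CPM in cMoPs. Lilra6 (-4.83 ± 0.20), Pira2 (-3.97 ± 0.21) and Tarm1 (-3.14 ± 0.12) were lower as well, and Lilra6 and Pira2 belong to a family of near-identical genes whose reads may be shared.

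Downstream of the ITAM, 2 of 34 tested kinases and effectors rose in monocytes on OP9-DLL1 and none fell by limma-trend or voom, while an unadjusted p under 0.05 was reached by 10 in the upward and 1 in the downward direction. The share called was 5.88%, near the 6.39% of all genes. Lyn, a Src family kinase, went from 264 and 287 CPM to 426 and 419 CPM (0.62 ± 0.10, adjusted p = 0.0103). It lost its call without either OP9-DLL1 monocyte library. Syk, the kinase that docks on the phosphorylated Fcer1g chain, had 0.33 ± 0.15 (adjusted p = 0.236). The list median in monocytes was 0.29, beside 0.01 over all genes. In cMoPs 0 of 34 passed by limma-trend or voom, beside 0.770% and 0.479% of all genes. There 4 upward and 1 downward values had an unadjusted p under 0.05. No share of all genes was taken at that unadjusted threshold, so these counts are not read as an excess. Against monocytes on OP9, 21 of 34 were lower in cMoPs and 1 higher (64.7% called, beside 56.5% of all genes). Among the lower ones were Fgr (-3.60 ± 0.25), Syk (-1.55 ± 0.15), Sh3bp2 (-1.32 ± 0.17) and Lyn (-1.26 ± 0.10).

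On the inhibitory side, 2 of 18 tested effectors rose and 2 fell in monocytes on OP9-DLL1, which is 22.2% of the list beside 6.39% of all genes. Sla, an adaptor that dampens receptor signalling, rose from 67.6 and 65.6 CPM to 201 and 186 CPM (1.54 ± 0.12, adjusted p = 0.000301), and in cMoPs from 67.9 and 61.6 CPM to 129 and 141 CPM (1.06 ± 0.12, adjusted p = 0.00395). Ptprc, the phosphatase CD45, which can both activate and restrain Src kinases, rose in monocytes (0.92 ± 0.11, adjusted p = 0.00224) and had 0.02 ± 0.11 in cMoPs. Dok2, an adaptor that restrains Ras signalling, fell in monocytes from 866 and 584 CPM to 238 and 263 CPM (-1.51 ± 0.17, adjusted p = 0.00192). Ubash3b, a phosphatase that acts on Syk, fell in both cell types (-0.68 ± 0.14 and -0.92 ± 0.14, adjusted p = 0.0272 and 0.024). Inpp5d, which encodes the SHIP-1 that Fcgr2b recruits, had 0.08 ± 0.12 in monocytes (adjusted p = 0.766) and 0.05 ± 0.12 in cMoPs (0.961), at 96.5 and 108 CPM and 105 and 110.5 CPM in monocytes. The Sla, Dok2 and Ptprc calls in monocytes held with any 1 library left out. The Ubash3b calls ended without any of several single libraries, and the cMoP call of Sla ended without cMoP replicate 2 of either stroma (adjusted p up to 0.0678). In cMoPs against monocytes 12 of 18 were lower on OP9, Inpp5d among them (-1.22 ± 0.12, adjusted p = 3.83e-05), and 15 on OP9-DLL1, beside 27.7% and 29.2% of all genes lower.

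**Figure D4:**
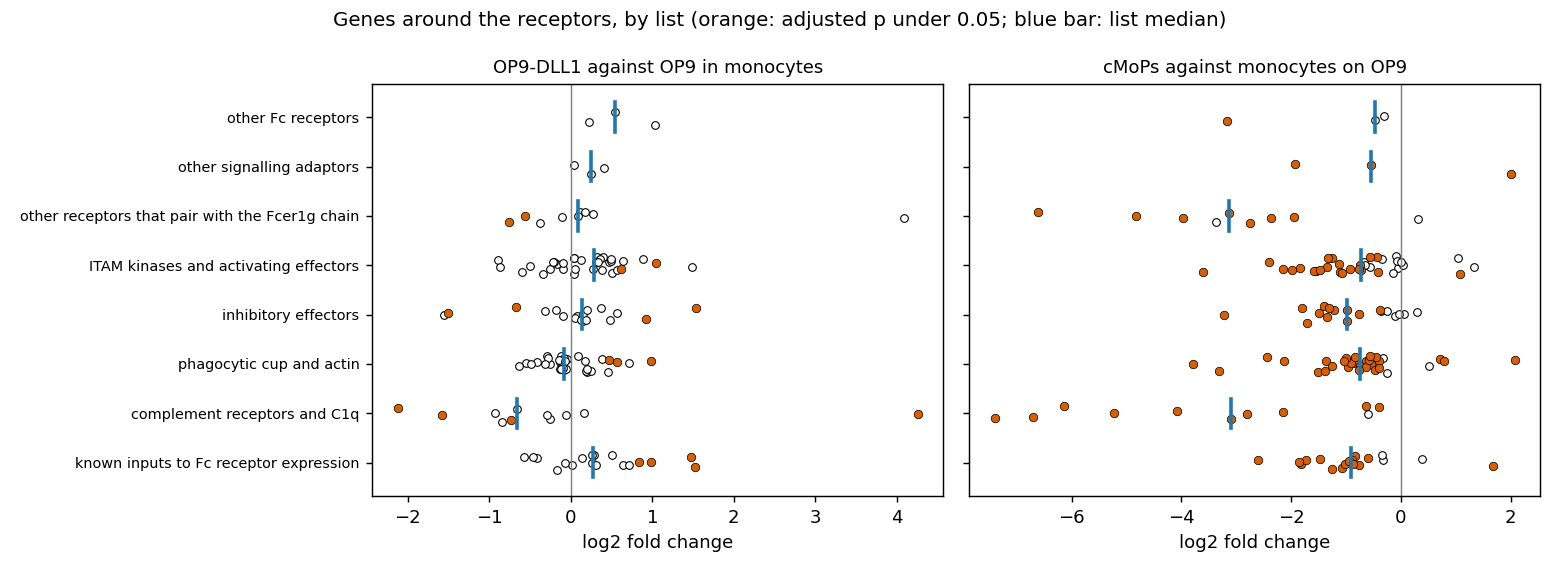
Log2 fold changes of the tested genes of 8 lists around the receptors, for OP9-DLL1 against OP9 in monocytes (left) and cMoPs against monocytes on OP9 (right); each point is a gene, orange points have a limma-trend adjusted p under 0.05, blue bars are list medians, and the vertical scatter within a list has no meaning. Most list genes are unfilled at left, and most are filled and below 0 at right, as for the 12 of 18 inhibitory effectors and the 26 of 32 genes of the phagocytic cup.

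Of 32 tested genes of the phagocytic cup and its actin, 3 rose in monocytes on OP9-DLL1 and 1 rose in cMoPs. The shares called were 9.38% and 3.12%, beside 6.39% and 0.770% of all genes. Marcks, which ties actin to the membrane, rose in both, from 86.2 and 96.7 CPM to 169 and 194 CPM in monocytes (0.99 ± 0.14, adjusted p = 0.00471) and from 6.69 and 6.53 CPM to 20.9 and 21.6 CPM in cMoPs (1.69 ± 0.14, adjusted p = 0.000857). Rhog, a small GTPase (0.57 ± 0.10, adjusted p = 0.0153), and Coro1a, which coats actin on phagosomes (0.47 ± 0.11, adjusted p = 0.0368), rose in monocytes. The monocyte calls of Marcks, Rhog and Coro1a all ended without replicate 2 of OP9-DLL1 (highest adjusted p with 1 library left out 0.0601, 0.145 and 0.226). Rhog and Coro1a also lost it without replicate 1, and Coro1a without any cMoP library. Centring the libraries on their medians also ended the Coro1a call. In cMoPs against monocytes 26 of 32 were lower and 3 higher on OP9 (90.6% called, beside 56.5% of all genes), with Gsn (-3.31 ± 0.21), Lsp1 (-2.45 ± 0.21) and Wasf2 (-0.92 ± 0.11) among those that were lower.

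The list of complement receptors and C1q held opsonin receptors, such as the integrins, and the anaphylatoxin receptors C3ar1 and C5ar1, which bind no opsonin. Of 11 tested genes 1 rose and 3 fell in monocytes on OP9-DLL1, and 1 rose and 2 fell in cMoPs (36.4% and 27.3% called, beside 6.39% and 0.770% of all genes). Both that fell in cMoPs and 2 of the 3 that fell in monocytes are anaphylatoxin receptors. Itgax, the alpha chain of complement receptor 4, rose from 1.44 and 1.22 CPM to 22.8 and 28.1 CPM in monocytes (4.25 ± 0.37, adjusted p = 0.000583) and from 0.58 and 1.32 CPM to 6.82 and 8.38 CPM in cMoPs (3.11 ± 0.37, adjusted p = 0.00686). C3ar1, the receptor of the anaphylatoxin C3a, fell from 337 and 264 CPM to 79.9 and 59.3 CPM in monocytes (-2.12 ± 0.21, adjusted p = 0.00113) and from 2.62 and 3.11 CPM to 0.61 and 0.53 CPM in cMoPs (-2.33 ± 0.21, adjusted p = 0.00111). C5ar1, the C5a receptor, fell by 1.58 ± 0.25 in monocytes (adjusted p = 0.00818) and by 1.59 ± 0.25 in cMoPs (adjusted p = 0.024), and Itgam, the alpha chain of complement receptor 3, fell in monocytes (-0.73 ± 0.17, adjusted p = 0.0407). By voom the falls of C3ar1 (adjusted p = 0.182) and C5ar1 (0.203) in cMoPs did not pass. The C5ar1 call in monocytes ended without OP9-DLL1 replicate 2 (adjusted p = 0.0696) and that of Itgax in cMoPs without OP9-DLL1 cMoP replicate 2 (0.0686). The Itgam call ended without any of 4 single libraries, and that of C5ar1 in cMoPs without any of 3. In cMoPs 10 of 11 were lower than in monocytes on both stromas, beside 27.7% and 29.2% of all genes, including Itgb2, the beta chain of both integrins (-2.15 ± 0.12 on OP9, adjusted p = 1.81e-06).

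The last list held 18 genes that are known as inputs to Fc receptor expression: the receptors, kinases and downstream factors of interferon gamma, interleukin 10, interleukin 4 and TGF-beta signalling, and myeloid transcription factors. In monocytes on OP9-DLL1 4 rose and none fell (2 were lower at an unadjusted p under 0.05), and voom called 7 higher and 0 lower. Of all 13374 genes, voom called 555 higher and 433 lower there. By limma-trend 22.2% of the list was called, beside 6.39% of all genes. Irf8, a factor of monocyte fate that acts with PU.1, rose from 59.6 and 75.6 CPM to 160.1 and 234 CPM (1.53 ± 0.22, adjusted p = 0.0055). Tgfbr1, a TGF-beta receptor, rose from 5.62 and 6.97 CPM to 19.1 and 15.8 CPM (1.47 ± 0.21, adjusted p = 0.0056). Il10ra, the ligand-binding interleukin 10 receptor chain, rose in monocytes (0.98 ± 0.19, adjusted p = 0.0181) and in cMoPs (1.10 ± 0.19, adjusted p = 0.0331, by voom 0.0635). Jak1, a kinase of these receptors, rose in monocytes (0.84 ± 0.16, adjusted p = 0.0183). Spi1, the gene of PU.1, had 0.51 ± 0.13 (adjusted p = 0.0563, by voom 0.0373), and Ifngr1, which binds interferon gamma, had 0.26 ± 0.14 (0.331).

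The calls of Irf8 and Jak1 ended without OP9-DLL1 monocyte replicate 2 (highest adjusted p 0.0539 and 0.147), that of Tgfbr1 without replicate 1 (0.0566), and that of Il10ra in monocytes without either (up to 0.11). The cMoP call of Il10ra ended without any of 5 single libraries (adjusted p up to 0.234). The list median in monocytes was 0.27, beside 0.01 over all genes. In cMoPs against monocytes 14 of 18 were lower and 1 higher on OP9 (83.3% called, beside 56.5% of all genes), the latter Irf8 (1.67 ± 0.22, adjusted p = 0.000196). Il10ra (-2.61 ± 0.19), Ifngr1 (-1.83 ± 0.14), Il10rb (-1.73 ± 0.16) and Spi1 (-1.26 ± 0.13) were lower.

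Several of the calls between stromas in these lists also depended on the model. Without the mean-variance trend the monocyte calls of Clec4d, Clec4e, Lyn, Ubash3b, Rhog, Coro1a, C5ar1, Itgam, Irf8, Il10ra and Jak1 ended, as did the cMoP calls of Clec4d, Sla, Ubash3b, Itgax, C5ar1 and Il10ra. In a fit of the 4 monocyte libraries alone the calls of Clec4d, Clec4e, Lyn, Ubash3b, Rhog, Coro1a, Itgam and Jak1 ended. The calls of Sla, Dok2, Ptprc, Itgax and C3ar1 in monocytes and of Marcks in cMoPs passed under every alternative tried.

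Likeness of pattern was read as the Pearson correlation of log2 CPM over the 8 libraries, a description in which all genes share the libraries and the step between cell types. Among the members, Fcgr2b, Fcgr3, Fcgr4 and Fcer1g correlated with each other at 0.890 to 0.956, and Fcgr1 with them at 0.413 to 0.640. The genes most like Fcgr1 were Diaph2 (0.989), Rbpj (0.988), Stab1 (0.984), Dab2 (0.977) and Aifm2 (0.977). Rbpj encodes the DNA-binding partner of Notch, and Stab1 a scavenger receptor. Those most like Fcgr2b were Tnfrsf1b, a TNF receptor (0.999), Sat1, Cyp4f17, Gltp and Xbp1 (0.994 to 0.997). For Fcgr3 they were Acbd4, Wdr37, Ncf4, a subunit of the phagocyte oxidase, Pld4 and Atp6v1d (0.991 to 0.997), and for Fcgr4 B3gat3, Stx4a, Tmem181b-ps, Ptger4 and Dnajb5 (0.974 to 0.986). Fcer1g was most like Atox1, Cd300c2, Ccl5, Stn1 and Samhd1 (0.998 to 0.999).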

How the data were processed

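The table covers 8 RNA-seq libraries. The submitters' processing notes name build mm10 and these tools: limma, edgeR, Salmon (1.5.2), featureCounts (2.0.3), Subread, STAR (2.7.9a) and bcl2fastq. How they were combined, and with which annotation, are points not given in the sources used here. Each sample column as deposited holds log2 CPM, normalised by the authors. The authors' deposited table also holds log2 fold changes and p-values of their own, and its stroma contrasts, OP9 minus OP9-DLL1, had their sign turned here. Of 13430 entries, 42 repeat an identifier and were dropped. The log2 values have voom's form (0.5 reads added), and 100.0% of them gave whole reads (tolerance 0.001), which served for depth and for voom as an alternative.

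The test was limma-trend (limma 3.58.1, R 4.3.3), applied to the log2 CPM as deposited, with 1 mean for each of the 4 groups, 4 residual degrees of freedom and two-sided p-values. Genes needed 1 CPM in 2 or more libraries (13374 tested, 14 left out). P-values were adjusted by Benjamini-Hochberg over all of them and called under 0.05. Counts at an unadjusted p under 0.05 have no share of all genes beside them and are not read as an excess. The script was tested on simulated data. Replicates of each group differed beyond counting noise (chi-square per degree of freedom from 23.9 to 156.4), so none was deposited a second time. Monocytes on OP9, the baseline of the stroma comparison in monocytes, had the highest value (156.4), and the other groups had 45.7 or less.

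The members and lists were chosen with earlier results of these data known. The 5 members are named whatever their result. Of each list up to 4 called genes by adjusted p are named, or 2 as values where none was called, for likeness the 5 best without predicted models, and of neighbours within 200 kb up to 4 called ones. Gene models are GENCODE M21. Promoters and starts are RefSeq GRCm38.p6, in which all 5 genes matched. 1 of the genes called in the lists is not reported here.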

Additional observations from a re-analysis of the deposited data

How the results depend on the processing

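The settings other than leaving out a library were no filter, no mean-variance trend, only the 4 libraries of a comparison, libraries centred on their medians, log2(CPM + 1), voom with and without sample weights, a replicate block and robust variance estimates. Over the 25 log2 fold changes of the 5 genes, 420 values under all settings kept direction and side of the threshold in 392, lost the call in 8, gained one in 7 and turned direction in 13, all of the last for values that had not passed. For OP9-DLL1 against OP9 in monocytes 2 genes passed, but 1 without the trend, where Fcgr1 did not (adjusted p = 0.0654), and 1 to 3 with 1 library left out, where Fcgr1 was lost or Fcer1g gained. In cMoPs 0 passed, against 1 in the fit of 4 libraries (Fcgr3, adjusted p = 0.0366) and 0 to 1 with 1 library left out. For the difference of responses 0 passed, and 0 to 1 with 1 left out. For cMoPs against monocytes on OP9-DLL1 it was 5, and 3 to 5 with 1 left out. The labels do not say that equal replicate numbers pair libraries, and deviations of same-numbered replicates correlated at 0.023 to 0.089, so no pairing was used. Replicate 1 was above replicate 2 in all 4 groups for Fcgr1, Fcgr3 and Fcgr4. With the replicate block 2 genes passed in cMoPs, Fcgr1 (adjusted p = 0.0289) and Fcgr3 (0.0381), and no other call of the 5 genes changed. Over the table the block gave 1058 calls in monocytes and 156 in cMoPs. With 1 library left out, where the lone library is assumed to vary like the other groups, the monocyte log2 fold change ranged from -0.37 to 0.33 for Fcgr3, -0.18 to 0.91 for Fcgr4 and -0.0212 to 0.45 for Fcer1g, and that of Fcgr4 in cMoPs from -0.37 to 0.96. The difference of responses ranged from -0.74 to 0.59 for Fcgr4 and -0.23 to 0.25 for Fcer1g, and with centred libraries it was 0.0108 for Fcgr4. Centring moved the higher share of monocyte calls from 52.6% to 39.8% and the median of all genes on OP9-DLL1 between cell types from -0.01 to 0.10, and member levels by -4.99% to 2.42%. Genes called over the table ranged from 164 to 2488 in monocytes (855), 31 to 315 in cMoPs (103) and 0 to 1124 for the difference (7). The highest counts in monocytes and for the difference both came without replicate 2 of monocytes on OP9. The planned edgeR and DESeq2 fits were not run, since the deposited unit is log2, and the fit of 4 libraries gives no difference of responses. The cause of these changes was not tested. The 5 genes had 194 or more reads in every library.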

Other observations

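Genes that lie beside the receptors were read for comparison. Within 200 kb of the 4 members on chromosome 1, 21 other genes were tested, and 5 of them were higher in monocytes on OP9-DLL1, against 3.36% of all genes higher, with none lower by limma-trend. Of the 5, Pcp4l1 lay within 200 kb of all 4 members. Usf1, Tstd1, B4galt3 and Nit1 lay that near only to Fcer1g, whose own value did not pass (limma-trend adjusted p = 0.44). Pcp4l1 had a log2 fold change of 3.67 ± 0.48 (adjusted p = 0.00353), and 3.09 to 4.25 with 1 library left out. It did not pass under 4 of 9 other settings, voom among them (adjusted p up to 0.243), and with log2(CPM + 1) its value was 0.81. Usf1, a transcription factor gene (1.32, adjusted p = 0.00648), Tstd1 (1.58, adjusted p = 0.0122) and B4galt3 (0.57, adjusted p = 0.0232) lost their calls without either OP9-DLL1 monocyte library. B4galt3 also lost its call without either OP9 cMoP library. Nit1 (0.66, adjusted p = 0.0445), which was named after its value was seen, lost its call without any of 7 single libraries. Of the 9 other settings, 1 ended the call of Usf1, 1 that of Tstd1, 2 that of B4galt3 and 4 that of Nit1. The median over these 21 genes was 0.50 on the log2 scale in monocytes and 0.22 in cMoPs, beside 0.01 over all genes in both. In cMoPs against monocytes on OP9, where all 4 members there were lower, 4 of the 21 neighbours were higher and 3 lower. Of all genes 56.5% were called in that comparison, 27.7% lower. On OP9-DLL1 4 of the 21 were higher and 8 lower, beside 57.4% of all genes called, 29.2% lower. Around Fcgr1 on chromosome 3, 0 of 8 neighbours were called between stromas, beside 6.39% of all genes in monocytes and 0.770% in cMoPs. In cMoPs against monocytes, 3 of the 8 were higher and 1 lower on OP9. On OP9-DLL1 2 of these 8 were higher and 2 lower.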
